A study of Homo sapiens with 8 samples.

Results

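The regions described here are 959 autosomal bins of 500 kb that overlap no protein-coding gene, of 5422 autosomal bins kept in all. They were chosen by position: a bin had to touch no body of a protein-coding gene in RefSeq GRCh38.p14 and to hold at least 0.1 of the median bin count. The other 4463 bins held at least 1 such gene, and 508 of them held 10 or more. Of 1211 bins without a coding gene, 252 fell under the count minimum, 199 of them with no molecule at all. The 3 bins just inside the minimum held 0.102, 0.105 and 0.105 of the median count, and the 3 just outside held just under 0.1, 0.0960 and 0.0954.

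The study pulsed CFAP20-KO and WT RPE-1 hTERT cells, a telomerase-immortalised line of retinal pigment epithelium, for 15 min with 10 µM EdU, a thymidine analogue that enters newly made DNA. Cells were fixed, sorted as single cells and processed by single-cell EdU sequencing (scEdU-seq), which reads where each cell was copying its genome at the time of the pulse. Both genotypes were on each of 8 plates, and no other treatment was given. The sources used here name neither the KO clone or clones nor separate cultures behind the plates, and a p-value therefore covers plate-to-plate spread alone. The genotype field of the labels names CFAP20-KO for every plate, while the titles name both genotypes, and the deposited files gave each cell's genotype.

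The files held 26148975 fragments, 1746074 to 4181841 per plate, and 2430 of 3023 wells passed a minimum of 1000 autosomal molecules. These were 1140 KO and 1290 WT cells, and 914 cells (431 KO, 483 WT) passed 5000 molecules. Cells were placed in an order along S phase, from 0 (early) to 1 (late), by the bins they had labelled. The timing of a bin is the mean position of the cells that labelled it, each weighted by its molecules.

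Long stretches without coding genes are known as gene deserts. In most human cell types, gene-rich DNA with open chromatin is copied early in S phase, while gene deserts, which often lie at the nuclear lamina and hold few origins that fire early, are copied late. Gene deserts are not empty: many hold long noncoding RNA (lncRNA) genes, microRNAs, and enhancers that act on developmental genes at their edges.

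What such DNA looks like is shown by 4 lncRNA promoters, from 250 bases before to 50 bases after the annotated start (RefSeq, GRCh38.p14), with CG dinucleotides in capitals. The promoter nearest the bin centre was taken from each of 2 of the earliest and 2 of the latest gene-free bins. LINC01638 (chr22:27224630-27224929, minus strand) and LOC124904513 (chr1:218918595-218918894, plus strand) lie in bins with a timing of 0.192 and 0.196. LOC105373401 (chr2:6313187-6313486, minus strand) and LOC124905953 (chr2:22198508-22198807, plus strand) lie in bins with a timing of 0.883 and 0.884.
LINC01638: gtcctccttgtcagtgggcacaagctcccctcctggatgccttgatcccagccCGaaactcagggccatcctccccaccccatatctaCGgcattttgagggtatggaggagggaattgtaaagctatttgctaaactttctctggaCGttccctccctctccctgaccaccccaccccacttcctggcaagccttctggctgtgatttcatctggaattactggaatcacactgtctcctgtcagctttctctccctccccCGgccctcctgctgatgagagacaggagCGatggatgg
LOC124904513: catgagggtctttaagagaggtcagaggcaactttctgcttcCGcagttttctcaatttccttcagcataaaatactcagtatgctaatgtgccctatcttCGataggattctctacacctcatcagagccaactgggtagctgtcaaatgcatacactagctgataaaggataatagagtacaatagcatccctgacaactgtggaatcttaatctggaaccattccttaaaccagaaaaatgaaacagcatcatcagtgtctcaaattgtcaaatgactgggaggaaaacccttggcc
LOC105373401: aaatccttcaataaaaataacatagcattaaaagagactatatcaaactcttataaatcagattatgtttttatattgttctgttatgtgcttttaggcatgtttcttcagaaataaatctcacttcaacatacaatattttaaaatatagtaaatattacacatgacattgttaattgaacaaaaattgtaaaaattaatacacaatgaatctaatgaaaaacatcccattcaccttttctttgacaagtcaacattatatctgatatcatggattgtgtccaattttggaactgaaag
LOC124905953: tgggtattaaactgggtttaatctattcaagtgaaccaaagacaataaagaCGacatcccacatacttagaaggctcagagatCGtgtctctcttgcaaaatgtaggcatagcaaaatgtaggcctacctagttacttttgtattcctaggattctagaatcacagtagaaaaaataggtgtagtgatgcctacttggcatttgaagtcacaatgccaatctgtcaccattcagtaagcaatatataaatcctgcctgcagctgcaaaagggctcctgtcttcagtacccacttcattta
The early LINC01638 promoter had 5 CG dinucleotides and 55.7% G and C, and the early LOC124904513 promoter had 2 and 41.7%. The late LOC105373401 promoter had none and 25%, and the late LOC124905953 promoter had 2 and 39.7%. Over 1218 lncRNA promoters in 576 gene-free bins the median G and C content was 40.3%, against 51.3% over 9723 lncRNA promoters in bins with coding genes. At least 10 CG (either strand gives the same count) were found in 9.52% of promoters in gene-free bins, against 35.3% in bins with coding genes. Among the 94 promoters in the early gene-free bins described below the share was 8.51%, close to the 9.61% in the other gene-free bins.

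Gene-free bins also held 55 annotated microRNA hairpins in 47 bins, with bin timings between 0.341 and 0.873 and a median of 0.749. Only 1 hairpin lay in a bin earlier than the median bin with genes. The mature sequences of 4 well-known microRNAs are given with the seed (bases 2 to 8), which pairs with target messenger RNAs, in capitals. They are shown as the best-known regulatory RNAs among these hairpins.
miR-205-5p: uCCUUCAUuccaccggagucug
let-7c-5p: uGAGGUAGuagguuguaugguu
miR-99a-5p: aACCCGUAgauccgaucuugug
miR-148a-3p: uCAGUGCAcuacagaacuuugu
The microRNA miR-205-5p, known from epithelial cells, comes from chr1:209432166-209432187 (plus strand), in a bin with a timing of 0.398. The microRNAs let-7c-5p (chr21:16539838-16539859) and miR-99a-5p (chr21:16539101-16539122), of the let-7 and miR-99 families, both on the plus strand, share a bin with a timing of 0.615. The microRNA miR-148a-3p comes from chr7:25949922-25949943 (minus strand), in a bin with a timing of 0.627. The 4 seeds differ from each other.

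The 959 bins covered 479.5 Mb, or 17.7% of the bins kept, and held 21.2% of the autosomal molecules. They formed 447 runs of adjacent bins, of which 220 were single bins and 101 were pairs. The longest run had 12 bins and spanned the centromere region of chromosome 7 (chr7:57500001-63500000), between ZNF716 and LOC124901649, with timings of 0.749 to 0.865. The next had 11 bins at chr18:15000001-20500000, between ANKRD30B and ROCK1, with timings of 0.666 to 0.826 and a mean count of only 0.237 of the median. Runs of 9 bins lay at chr20:26000001-30500000 and at chr4:31500001-36000000, and the chromosome 4 run is a desert between PCDH7, a protocadherin, and ARAP2. By chromosome, gene-free bins made up 5.36% of the bins of chromosome 19 (6 bins) and 32.5% of those of chromosome 21 (25 bins). They made up 29.4% of chromosome 18, 28.0% of chromosome 13 and 25.3% of chromosome 4. An lncRNA gene overlapped 764 of the bins, and 100 overlapped no annotated gene of any kind.

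Gene-free bins were copied late. Their median timing was 0.778 ± 0.0206, against 0.362 ± 0.0263 in bins with coding genes (SD, n = 8 plates). Over plates the lowest, middle and highest medians were 0.738, 0.782 and 0.798 in gene-free bins, against 0.323, 0.366 and 0.389 in bins with genes. These medians did not overlap over plates, though the bins of the classes did. The difference in medians was 0.416 ± 0.0287, positive in 8 of 8 plates (exact two-sided sign-flip permutation, n = 8, p adjusted over 4 comparisons = 0.00781, the smallest that 8 plates allow). Since early was defined as the gene-rich end of the order, part of the direction follows from that choice. With cells ordered by the bins with genes alone the difference was 0.392. Raising the minimum to 5000 molecules per cell gave 0.300, and it was 0.233 when each cell had equal weight.

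The distribution was narrow and piled up at the late end. The middle 80% of gene-free bins lay between 0.528 and 0.862 and the median bin at 0.781, with extremes of 0.187 and 0.884. A timing later than 0.7 was found in 676 gene-free bins (70.5%), against 769 bins with genes (17.2%). The interquartile range within a plate was 0.157 ± 0.0233 in gene-free bins, against 0.390 ± 0.0308 in bins with genes (difference -0.234 ± 0.0298, lower in 8 of 8 plates, exact sign-flip permutation, n = 8, adjusted p = 0.00781). That difference was -0.113 in cells of at least 5000 molecules and -0.0866 with equal weight per cell. Bins with a single coding gene stood between, at a median of 0.668, and bins with 10 or more genes were at 0.203. The typical gene-free bin varied between plates with an SD of 0.0318.

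**Figure D1:**
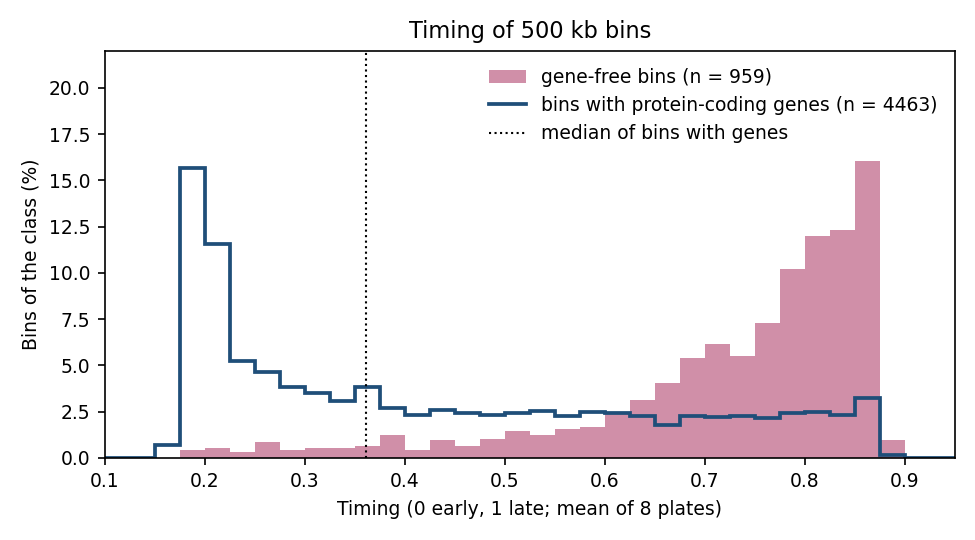
Histogram of timing (x axis, 0 early to 1 late, mean of 8 plates) for gene-free bins (filled, 959 bins) and bins with protein-coding genes (line, 4463 bins), each as percent of its class; the dotted line is the median of bins with genes, 0.362. Gene-free bins pile up above 0.7 and thin out to a short early tail of 38 bins left of the dotted line.

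Within the class, isolation went with late replication, though timing and distance to the nearest coding gene correlated only weakly (r = 0.202 over bins). Single-bin runs had a median timing of 0.714, runs of 2 or 3 bins 0.788, and runs of 4 or more bins 0.795. With a coding gene within 100 kb the median was 0.707 (224 bins), with the nearest 100 to 500 kb away 0.776 (429 bins), and with none within 500 kb 0.802 (306 bins). Of those most isolated 306 bins, 0 were earlier than the median bin with genes, and the earliest had a timing of 0.396. The 100 bins with no gene of any kind had a median of 0.748 and a minimum of 0.535, but their median count was only 0.371 of the median bin. The 76 bins with under 0.5 of the median count had a median timing of 0.697, so the thinly covered bins were less late than the class as a whole.

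Gene-free bins at the edge of a run resembled their neighbours. Over 651 gene-free bins next to a bin with genes, timing correlated with that of the adjacent bins by r = 0.728, a description over bins that share cells and libraries. The gene-free bin was the later of the pair in 519 of the 651, by a median of 0.0853.

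**Figure D2:**
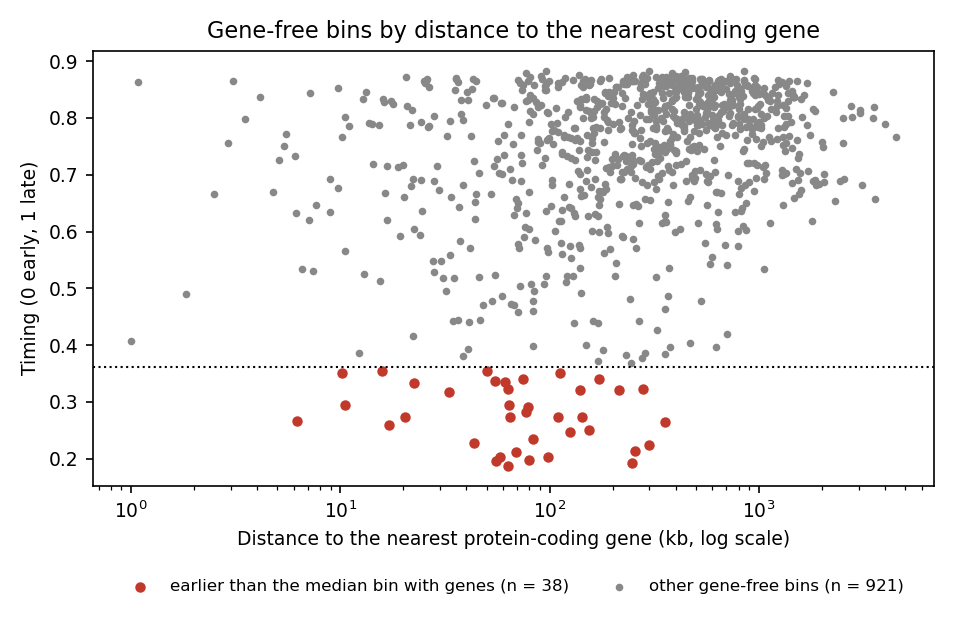
Timing of each gene-free bin (y axis, 0 early to 1 late, mean of 8 plates) against the distance from the bin's edge to the nearest protein-coding gene (x axis, kb, log scale; distances under 1 kb drawn at 1). Red points are the 38 bins earlier than the median bin with genes (dotted line); none of them lies 500 kb or more from a coding gene, while most grey points there lie above 0.7.

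The early exceptions were 38 gene-free bins (3.96%) whose timing lay below 0.362, the median of bins with genes, by definition the value that parts bins with genes evenly. They lay on 16 chromosomes, and 24 of them were below that plate's median in every plate. The last bin inside had a timing of 0.354 and the first outside 0.369. Single-bin runs made up 29 of the 38, against 220 of all 959. Their nearest coding gene was a median of 72.0 kb away, 37 overlapped an lncRNA gene, and in 31 the adjacent bins with genes were themselves earlier than the median. None had under 0.5 of the median count. Counted in bins of 250 kb, 178 of 2768 gene-free bins were early.

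The earliest of all, chr8:29500001-30000000, lies between DUSP4, a phosphatase that acts on MAP kinases, and SARAF, a regulator of calcium entry. Its timing was 0.164 in the lowest, 0.183 in the middle and 0.222 in the highest plate. The next was chr22:27000001-27500000 at 0.192 ± 0.0280 (SD, n = 8), between the crystallin gene CRYBA4 and MN1, a transcriptional coregulator. A bin at chr1:218500001-219000000, between the growth factor gene TGFB2 and LYPLAL1, was at 0.196 ± 0.0312. All 3 were earlier than the median of bins with 10 or more genes.

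The bin chr15:39000001-39500000, between RASGRP1, an activator of Ras, and LOC124903470, was at 0.198 ± 0.0353. The bin chr5:74000001-74500000, between ARHGEF28 and ENC1, was at 0.203 ± 0.0252, and chr3:99000001-99500000, between DCBLD2 and the collagen gene COL8A1, was at 0.203 ± 0.0292. At chr10:78500001-79000000, between the ribosomal protein gene RPS24 and ZMIZ1, timing was 0.212 ± 0.0258. At chr8:128000001-128500000, beyond the transcription factor gene MYC, it was 0.213 ± 0.0219. The last of the 10 earliest were chr3:177500001-178000000 (0.224 ± 0.0290), between TBL1XR1 and KCNMB2, and chr15:69500001-70000000 (0.228 ± 0.0358), between RPLP1 and TLE3. The bins with genes adjacent to these 10 were early too, between 0.190 and 0.271.

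The T-cell receptor alpha region at chr14:22000001-22500000, which has gene segments in place of ordinary coding genes, was another early exception, at 0.274 ± 0.0278. The other 3 gene-free bins with immunoglobulin or T-cell receptor segments were late, at 0.767, 0.831 and 0.855.

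At the late end the 10 latest bins lay between 0.874 and 0.884, within the SD of any of them between plates. The latest, chr2:22000001-22500000 between TDRD15 and KLHL29, was at 0.799 in the lowest, 0.893 in the middle and 0.918 in the highest plate. The bin chr3:1500001-2000000 lies between the contactin genes CNTN6 and CNTN4, neuronal adhesion proteins, and was at 0.883 ± 0.0286. Bins on both sides of SOX11, a transcription factor of neural progenitors, were among the 10: chr2:6000001-6500000 at 0.883 ± 0.0352 and chr2:4500001-5000000 at 0.880 ± 0.0367. The desert between the cadherin genes CDH8 and CDH11 gave chr16:64000001-64500000 at 0.882 ± 0.0329. The desert beside the ephrin receptor gene EPHA7 gave chr6:95000001-95500000 at 0.879 ± 0.0282.

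The other latest bins were chr6:164500001-165000000 (0.876), chr10:56500001-57000000 between ZWINT and IPMK (0.875), chr18:65000001-65500000 beside CDH7 (0.875) and chr1:143000001-143500000 (0.874). The chromosome 1 bin lies near the centromere and held 7.44 times the median count.

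Deserts beside developmental regulators and beside synapse genes were both late. Of 76 autosomal genes in a list of developmental regulators, 31 flanked 68 gene-free bins with a median timing of 0.776, and 2 of those bins were early, beside GDF6 (0.273) and NR2F1 (0.235). Of 71 synapse and adhesion genes, 51 flanked 201 gene-free bins with a median of 0.804, and 1 was early, beside the semaphorin gene SEMA3C (0.282). The median over all gene-free bins was 0.781, so neither list stood far from the class. The desert was later than the bin or bins of the gene it flanks for 21 of the 31 developmental regulators and earlier for 10, with a median difference of 0.108. For the 51 synapse and adhesion genes it was later for 34 and earlier for 17, with a median difference of 0.0214. The 3 bins beside GATA3, a transcription factor of T cells and epithelia, had a median of 0.848, against 0.622 for the bin or bins of GATA3 itself. The 4 bins beside BCL11B had a median of 0.840, against 0.458 at the gene. The 1 bin beside MEIS1 was earlier, with 0.470 in the desert against 0.742 at the gene, and so were the 2 bins beside ID4, an inhibitor of differentiation factors (0.624 against 0.754), and the 1 bin beside the T-box gene TBX3 (0.745 against 0.841).

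Among the bins kept, molecules were denser in gene-free bins, at 654 ± 161 per bin and plate, against 522 ± 122 in bins with coding genes. The difference was 0.32 ± 0.12 on the log2 scale, higher in 8 of 8 plates (SD, n = 8, exact sign-flip permutation, adjusted p = 0.00781). A small set of bins took a large part: 13 gene-free bins that touch a 200 kb stretch with more than 3 times the median count held 8.02% of the molecules of the class. Each held 1.47 to 16.9 times the median bin count. The highest were chr16:46000001-46500000 (16.9 times), chr10:41500001-42000000 (15.4 times), chr16:34500001-35000000 (13.3 times) and chr5:49500001-50000000 (12.1 times), all close to centromeres. Without these bins, and 8 such bins with genes, the difference in density was 0.22. The count minimum bears on all these densities. It removed 252 of 1211 bins without a coding gene, while 5422 of all 5758 bins were kept. A larger share of gene-free bins was thus removed for a low count. The test used the same counts as the minimum, so it cannot say whether DNA without coding genes is more densely labelled. Density without the minimum was not compared.

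The same 13 bins set the measured length of labelled tracks. Track width was read from distances between molecules of a cell within runs of bins of a class, as the distance at which the excess of pairs falls to 50% of its value at 5 to 10 kb. Over all bins the width was 15.4 ± 0.226 kb in gene-free runs, against 16.6 ± 0.361 kb in runs with genes (SD, n = 8). The difference was -1.26 ± 0.46 kb, lower in 8 of 8 plates (exact sign-flip permutation, n = 8, adjusted p = 0.00781). Without the high-count bins the sign turned: 17.9 ± 0.405 kb in gene-free runs, against 16.6 ± 0.377 kb in runs with genes, a difference of 1.34 ± 0.272 kb, higher in 8 of 8 plates (exact sign-flip permutation, n = 8, adjusted p = 0.00781). In runs of at least 3 bins it was 2.07 ± 1.71 kb. These differences pool all stages of S phase, and values by stage are given below.

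The high-count bins held 68.7% of all gene-free pairs at 5 to 10 kb but 8.31% of those at 400 to 500 kb. The bin chr16:46000001-46500000 alone held 31.6% of the pairs at 5 to 10 kb. A peak of pairs at 55 to 60 kb came mainly from 1 bin, chr5:49500001-50000000, which held 57.1% of them. Once the high-count bins were left out, the excess of pairs at 5 to 10 kb over those at 400 to 500 kb was lower in gene-free runs. It was 2.95 ± 0.259 there, against 5.59 ± 0.224 in runs with genes. Neither run length nor the stage of S phase was matched between the classes, and this difference was not tested.

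**Figure D3:**
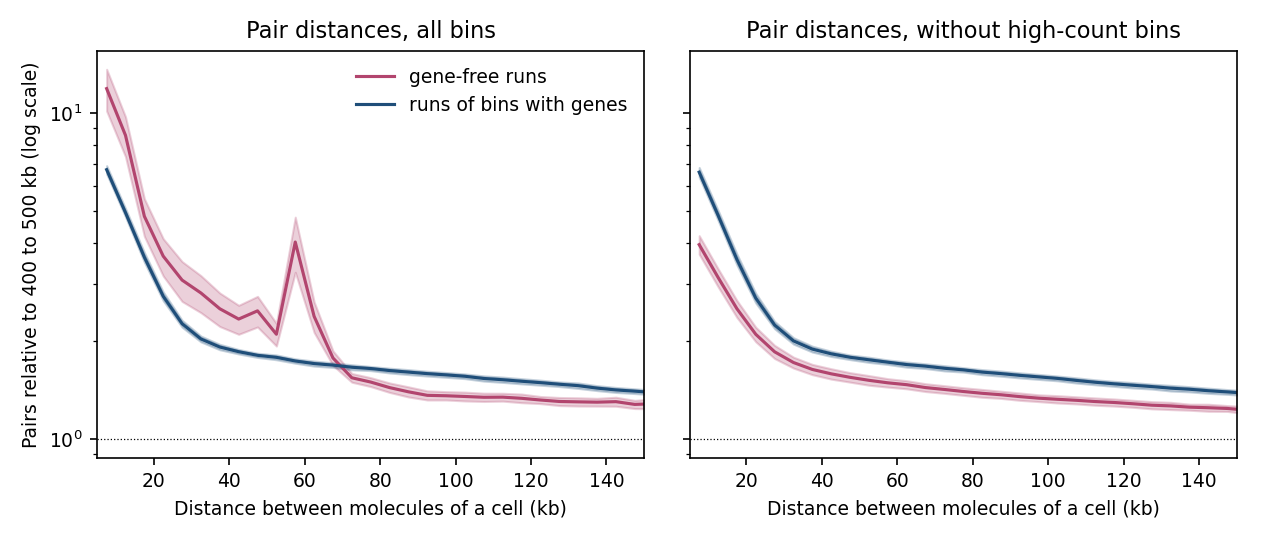
Pairs of molecules of the same cell by their distance (x axis, kb) within gene-free runs and within runs of bins with genes, relative to pairs at 400 to 500 kb (y axis, log scale); lines are means and bands SD over 8 plates. With all bins (left) the gene-free curve starts high and peaks at 55 to 60 kb; without the high-count bins (right) the peak is gone and the gene-free curve lies below the curve of bins with genes.

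Without the high-count bins the sign of the width difference also depended on the stage of S phase. In the early, middle and late terciles of the order the gene-free width less the width in runs with genes was 0.827 ± 0.133, 0.374 ± 0.416 and -0.549 ± 0.286 kb (SD, n = 8). The early and late differences held in 8 of 8 plates each (exact sign-flip permutation, n = 8, p adjusted over 3 terciles = 0.0117), and the middle one missed the threshold (adjusted p = 0.0547). When runs were also limited to at least 3 bins, a setting chosen after seeing the data, the late difference was -0.0285 ± 0.355 kb (adjusted p = 0.867, exact sign-flip permutation, n = 8). Tracks in both classes were longest late: 18.5 kb in gene-free runs and 19.05 kb in runs with genes, against 15.9 and 15.1 kb early.

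The share of all molecules that fell in gene-free bins was compared between genotypes. It was 22.3 ± 1.36% in KO cells and 20.5 ± 1.84% in WT cells (SD, n = 8 plates). The lowest, middle and highest plate gave 20.3%, 21.9% and 24.4% in KO, against 17.2%, 20.9% and 22.4% in WT, so the ranges overlapped. The log2 difference of 0.12 ± 0.13, higher in KO on 6 of 8 plates, did not pass the threshold after adjustment over 5 comparisons (exact sign-flip permutation, n = 8, adjusted p = 0.0651). Which cells were sampled moves with this value: the molecule-weighted mean position was 0.551 ± 0.0377 in KO and 0.513 ± 0.0465 in WT cells, and its part in the result was not tested. Averaged with equal weight over the 3 terciles the log2 difference was -0.02 (adjusted p = 0.488, exact sign-flip permutation, n = 8).

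Along S phase the 2 genotypes parted in opposite directions. Cells were split into deciles of the order, after the values had been seen. The share was 4.33% in KO and 4.43% in WT cells in the first decile, and 44.8% in KO and 39.6% in WT cells in the last. In the last decile (129 KO and 114 WT cells) the lowest, middle and highest plate gave 43.9%, 44.5% and 46.1% in KO, against 38.6%, 39.6% and 40.9% in WT. No plate overlapped between the genotypes there, and the log2 difference was 0.18 ± 0.05, higher in KO on 8 of 8 plates (exact sign-flip permutation, n = 8, p adjusted over 10 deciles = 0.0260). In the third decile the share was 11.9 ± 0.351% in KO and 13.9 ± 0.806% in WT, lower in KO on 8 of 8 plates (log2 -0.22 ± 0.07, adjusted p = 0.0260, exact sign-flip permutation, n = 8). The seventh (log2 -0.14, adjusted p = 0.0391) and eighth deciles (log2 -0.13, adjusted p = 0.0260) were also lower in KO by the same exact test, on 7 and 8 of 8 plates. The other 6 deciles did not pass, with log2 differences of -0.17 to -0.01.

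The last decile was higher in KO on 8 of 8 plates in every setting tried for it. These were cells of at least 5000 molecules (log2 0.14), the order from bins with genes alone (0.17), without the high-count bins (0.18), and without chromosomes 7, 10, 19 and 20 (0.17). With the minimum raised to 5000 molecules the remaining cells were ranked anew, so a decile there need not hold the same stretch of S phase. The WT share in the eighth decile was 34.3% in that ranking, against 23.5% over all cells. In that ranking the third to sixth deciles were lower in KO on 8 of 8 plates. The eighth, at -0.13 over all cells, was higher in KO by 0.15 there. Within the last decile the mean position of the 2 genotypes was 0.9499 in KO and 0.9501 in WT cells. In the eighth decile it was 0.750 in KO and 0.764 in WT cells, and at 5000 molecules 0.756 in KO and 0.734 in WT cells. In both settings the genotype with the later position had the higher share. In the third decile it was 0.242 in KO and 0.243 in WT cells. In the seventh it was 0.652 in KO and 0.641 in WT cells, with the lower share in KO. The part of position in these differences was not tested.

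**Figure D4:**
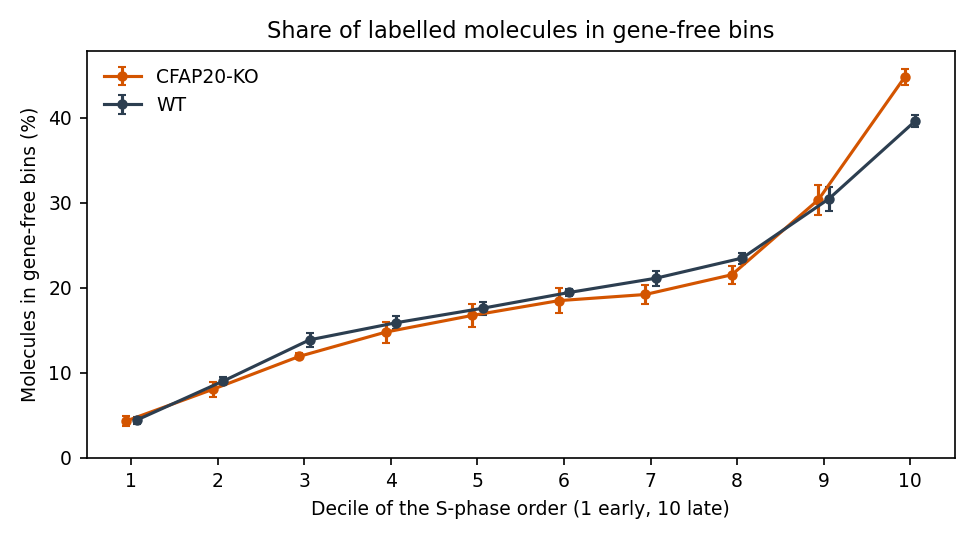
Share of labelled molecules in gene-free bins (y axis, percent) in each decile (10 equal groups of cells) of the S-phase order (x axis, 1 early to 10 late) for CFAP20-KO and WT cells; points are means and bars SD over 8 plates. The curves lie close together, with KO below WT in the third, seventh and eighth deciles and above WT in the last, at 44.8% against 39.6%.

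The timing of gene-free bins as a class moved no differently from that of bins with genes. The median over bins of the KO minus WT timing was 0.0251 ± 0.0332 in gene-free bins and 0.0242 ± 0.0264 in bins with genes (SD, n = 8 plates). The difference between them was 0.000888 ± 0.0317, positive on 3 of 8 plates (exact sign-flip permutation, n = 8, adjusted p = 0.883). In cells of at least 5000 molecules it was 0.0211 (adjusted p = 0.0586, exact sign-flip permutation, n = 8).

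Single bins did shift. In a limma fit over 5185 bins with at least 50 molecules in every library, 899 gene-free bins were tested and 60 were not. Timing was centred on the median bin of each library first, so later and earlier are relative to that median. Later timing in KO passed an adjusted p of 0.05 in 215 gene-free bins (23.9%), with a background of 25.4% of all bins tested. Earlier timing in KO passed in 81 (9.01%), with a background of 13.9%. The shares of gene-free bins were near or below the background in both directions. Gene-free bins were called on 22 chromosomes, and in 170 of 212 called bins at the edge of a run the adjacent bins with genes had the same sign, by any amount. Of the 38 early exceptions 14 passed as later and 2 as earlier in KO, against 215 and 81 of the 899 gene-free bins tested. Bins with genes of like timing were not counted apart, so these counts cannot be called particular to gene-free bins.

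The bin that moved most, chr7:79500001-80000000, lies between MAGI2, a synaptic scaffold gene 46.3 kb away, and GNAI1, a G protein subunit. Its timing was 0.432, 0.611 and 0.651 in the lowest, middle and highest KO library, against 0.242, 0.305 and 0.361 in WT. All 8 KO libraries were later than all 8 WT libraries. The difference after centring was 0.281 ± 0.0221 (limma, SE, adjusted p = 6.03e-15), while the library values given here and below are not centred. The bins with genes beside this bin were later by a mean of 0.163.

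At chr3:178000001-178500000, 36.4 kb from the potassium channel subunit gene KCNMB2, timing was 0.489, 0.550 and 0.662 in the lowest, middle and highest KO library, against 0.329, 0.345 and 0.409 in WT. The libraries did not overlap, and the difference was 0.199 ± 0.0233 (limma, SE, adjusted p = 7.19e-10). At chr21:16000001-16500000, between the ubiquitin protease gene USP25 and the virus receptor gene CXADR, the difference was 0.181 ± 0.0216, again with no overlap. The other 7 of the 10 greatest delays were 4 bins at chr2:92000001-94000000 and the bins chr12:35500001-36000000 and chr12:36500001-37000000, all near centromeres, and chr21:27000001-27500000, with differences of 0.163 to 0.198. The chromosome 2 and 12 bins among them held only 0.431 to 0.622 of the median count.

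The greatest advance was at chr4:12000001-12500000, in the desert between HS3ST1, a heparan sulfate sulfotransferase, and RAB28. Its timing was 0.432, 0.598 and 0.693 in the lowest, middle and highest KO library, against 0.614, 0.811 and 0.846 in WT. The ranges overlapped while the difference was -0.210 ± 0.0244 (limma, SE, adjusted p = 5.83e-10), and the next bin of the same desert moved by -0.139. At chr10:90000001-90500000, between the kinesin gene KIF20B and the serotonin receptor gene HTR7, KO libraries gave 0.400, 0.446 and 0.597 and WT libraries 0.562, 0.672 and 0.747, with an overlap of the ranges. The difference was -0.199 ± 0.0209 (limma, SE, adjusted p = 3.66e-11).

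At chr7:67500001-68000000, in the desert before AUTS2, a gene of neuronal development, the difference was -0.178 ± 0.0208, and no KO library reached the lowest WT library (0.691 at most in KO, 0.720 at least in WT). At chr21:35500001-36000000, between the haematopoietic transcription factor gene RUNX1 and SETD4, it was -0.150 ± 0.0225. At chr2:65500001-66000000, between the Ras pathway inhibitor gene SPRED2 and MEIS1, it was -0.143 ± 0.0211. The remaining 4 of the 10 greatest advances lay at chr1:30000001-30500000 (between PTPRU and MATN1), chr8:126000001-126500000 (next to LRATD2), chr14:39500001-40000000 (next to FBXO33) and chr7:136000001-136500000 (next to MTPN), with differences of -0.159 to -0.135. Beside these advances the bins with genes moved by less. The change was -0.05 at chr4:12500001-13000000, -0.04 at chr10:90000001-90500000, chr1:30000001-30500000 and chr8:126000001-126500000, and -0.02 at chr7:67500001-68000000 and chr2:65500001-66000000. It was in the other direction, at 0.03, beside chr21:35500001-36000000, 0.05 beside chr14:39500001-40000000 and 0.0030 beside chr7:136000001-136500000. The bin chr4:12000001-12500000 had no adjacent bin with genes.

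The number of molecules per bin changed in few gene-free bins. By limma voom 27 of 899 had fewer molecules in KO (3%), with a background of 3.86% of all bins tested, and 24 had more (2.67%), with a background of 1.18%. With the plate as a block the counts were 35 fewer, with a background of 4.9%, and 48 more, with a background of 2.16%. The median log2 difference was 0.14 over the gene-free bins tested and -0.05 over bins with genes.

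The sign followed timing within the class. The 38 early exceptions had a median of -0.23, with 34 of 38 below 0. Of these 38 bins 4 were called as fewer, against 27 of the 899 gene-free bins tested and a background of 3.86% of all bins. The gene-free bins later than 0.7, 648 of the 899 tested, had a median of 0.19, with 566 above 0. They held 23 of the 24 bins called as more numerous in KO. The same difference in mean position of the sampled cells given above moves with this, and its part was not tested.

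Bins with fewer molecules in KO were concentrated on few chromosomes: 17 of the 27 lay on chromosome 7, 4 on chromosome 20 and 3 on chromosome 10. On chromosome 7 the median log2 difference was -0.25 over 47 gene-free bins and -0.24 over 270 bins with genes. The medians of the classes were thus near each other there, while over all chromosomes they were 0.14 and -0.05. The strongest were adjacent bins on chromosome 10, chr10:36500001-37000000 and chr10:36000001-36500000, before ANKRD30A, both among the 13 high-count bins. The first held 1.27, 1.59 and 1.70 times the median bin in the lowest, middle and highest KO library, against 2.87, 3.89 and 6.37 times in WT. Its log2 difference was -1.41 ± 0.13 and that of its neighbour -1.40 ± 0.14 (limma voom, SE, adjusted p = 6.01e-09 and 3.18e-08), with no overlap of libraries.

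On chromosome 7 the largest fall was at chr7:136000001-136500000, between MTPN and the muscarinic receptor gene CHRM2, with 0.551, 0.662 and 0.986 times the median bin in KO, against 1.05, 1.31 and 1.65 in WT. Its log2 difference was -0.95 ± 0.13 (limma voom, SE, adjusted p = 1.38e-05). Falls of -0.85 to -0.63 were seen in 7 more chromosome 7 bins among the 10 greatest, including the desert before AUTS2 and the bin beside SHH, the sonic hedgehog gene. When chromosomes 7, 10, 19 and 20 were left out, 1 of 800 gene-free bins passed in either direction, although 3 of the 27 bins with fewer molecules and 20 of the 24 with more lay on other chromosomes. The median log2 difference over the gene-free bins was 0.15 in that fit, against 0.14 in the fit of all chromosomes, and 200 of the 800 had an unadjusted p under 0.05, against 242 of 899.

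The gains were smaller. They were led by chr3:90500001-91000000, near the centromere between the ephrin receptor gene EPHA3 and PROS1 (log2 0.64 ± 0.16), chr12:37000001-37500000 (0.64 ± 0.12) and chr9:44000001-44500000 (0.62 ± 0.14). The chromosome 3 bin held only 0.426 of the median count. Away from centromeres the desert between TMEFF2 and SLC39A10 on chromosome 2 (0.57 ± 0.16), the bin beside the glutamate receptor gene GRIN3A (0.52 ± 0.14) and the delayed bin beside MAGI2 (0.51 ± 0.12) had more molecules in KO (limma voom, SE, adjusted p between 0.000772 and 0.0367 over these 6). The number called as more numerous rested on single plates: it was 10, 8, 13, 9 and 51 without plates 1, 2, 3, 5 and 6, and the number called in both directions was 29 without plate 2.

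Tracks in gene-free DNA were longer in KO cells. Over all bins the width in gene-free runs was 15.7 ± 0.472 kb in KO, against 15.2 ± 0.218 kb in WT. KO tracks were longer by 0.551 ± 0.470 kb, higher in KO on 8 of 8 plates (SD, n = 8, exact sign-flip permutation, adjusted p = 0.0195). Without the high-count bins the widths were 19.4 ± 0.379 kb in KO and 17.1 ± 0.291 kb in WT, and every KO value lay above every WT value (18.98 kb at least in KO, 17.6 kb at most in WT). That difference was 2.32 ± 0.374 kb (exact sign-flip permutation, n = 8, adjusted p = 0.0391), and by tercile it was 1.94, 2.46 and 2.28 kb, on 8 of 8 plates each. With all bins the tercile differences were 1.26 ± 0.672 kb on 7 of 8 plates early, 0.504 ± 1.58 kb on 4 of 8 in the middle (adjusted p = 0.445, exact sign-flip permutation, n = 8) and 0.558 ± 0.475 kb on 8 of 8 late. In cells of at least 5000 molecules without the high-count bins, the late difference was 1.66 ± 0.918 kb on 7 of 8 plates.

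Runs with genes lengthened as well, by 2.02 ± 0.430 kb in KO. Over all bins the KO minus WT difference in gene-free runs was smaller than in runs with genes by 1.47 ± 0.740 kb, on 8 of 8 plates (exact sign-flip permutation, n = 8, adjusted p = 0.0195). Without the high-count bins that gap was gone: the gene-free difference less that in runs with genes was 0.237 ± 0.684 kb, positive on 4 of 8 plates (adjusted p = 0.547, exact sign-flip permutation, n = 8). In runs of at least 3 bins the KO minus WT width in gene-free runs was 2.32 ± 1.47 kb and missed the threshold (adjusted p = 0.0781, exact sign-flip permutation, n = 8).

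**Figure D5:**
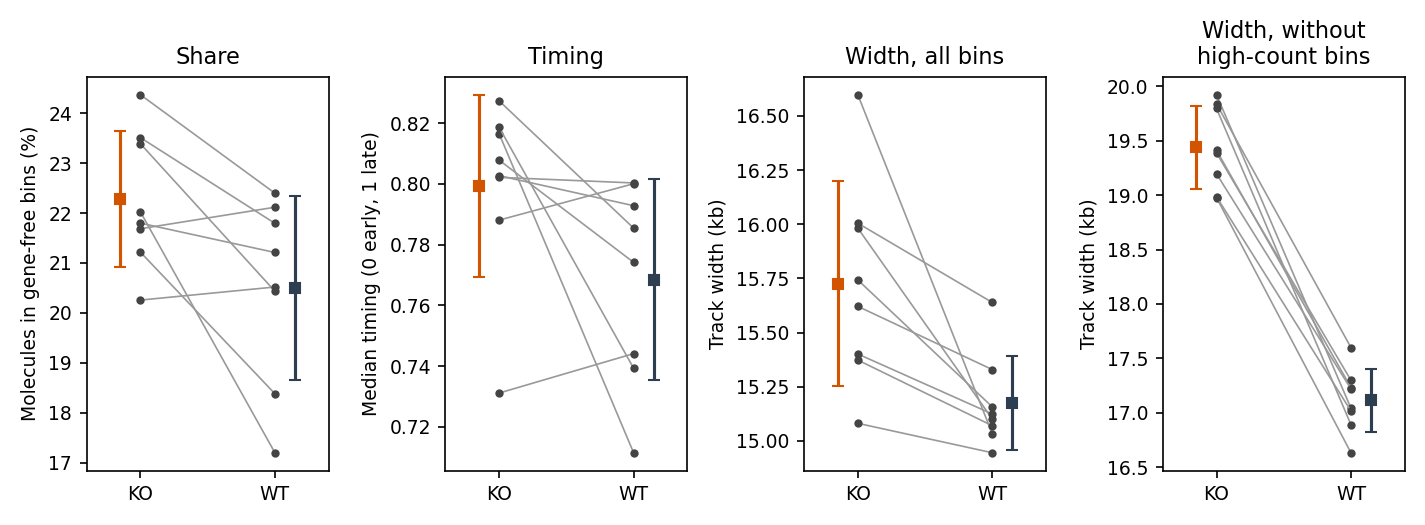
Values of gene-free DNA in KO and WT cells of each plate (grey lines join the genotypes of a plate; squares and bars are means and SD over 8 plates): share of molecules in percent, median timing from 0 to 1, and track width in kb with all bins and without the high-count bins. Share and timing overlap between genotypes, while the widths without the high-count bins, 19.4 kb in KO and 17.1 kb in WT, do not; the axes do not start at 0.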

How the data were processed

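The deposited files list, per cell of each plate, the positions of sequenced fragments on GRCh38 (build per the submitters' processing notes). These positions were made by the authors from single-cell EdU sequencing, while the aligner, filters and duplicate removal are not stated in those sources. Between 6.35% and 8.81% of fragments per plate shared cell and position with another. The genotype of each cell came from the files' treatment column.

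The members, gene lists and tests were chosen with earlier results of these data known. Fragments were counted in 500 kb bins, and cells of at least 1000 autosomal molecules were ordered by correspondence analysis over the autosomal bins, whose main axis held 18.8% of the variation. Pairs were counted in 5 kb steps against those at 400 to 500 kb. Plate differences were tested by two-sided exact permutation of their signs (8 plates), with Benjamini-Hochberg adjustment over the 4 comparisons of bin classes and over the 5 of genotypes. Each bin's timing (limma) and molecules (limma voom, scaled to library totals) were tested over 16 libraries, 1 per genotype and plate. Timing was centred on the median of each library before the fit. Adjusted p is Benjamini-Hochberg over all 5185 bins. The order, timing, width and limma steps were tested on simulated data. Named bins were the 10 earliest, 10 latest and, for each limma test and direction, the 10 with the largest change among bins past the threshold. The 4 microRNAs were chosen by name, and no promoter of chromosome 8 is shown. R 4.3.3, limma 3.58.1, Python 3.11.15, numpy 2.4.6, scipy 1.17.1, pandas 2.3.3 and numba 0.67.0 were used.

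The titles place both genotypes on each plate, so plate values are differences within plates, and the limma fits had no plate term except as an alternative. KO and WT libraries of a plate deviated together with a mean correlation of 0.136 (-0.0974 to 0.282), against -0.0202 between plates, and 4 of 8 KO libraries correlated best with the WT library of their own plate. No plates were near-duplicates (chi-squared per degree of freedom of 7.30 to 20.0 over 28 pairs). Alternatives were other minimum counts, bin sizes, orders, widths, the plate as a block, regions left out and plates left out.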

Additional observations from a re-analysis of the deposited data

Results flagged for a closer look

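Among 36 groups of plate values examined for a sample far from the others, which chance marks in about 1 of 20, plate 8 stood apart in 2. The interquartile range of timing over gene-free bins was 0.107 on plate 8 and 0.147 to 0.180 on the other 7 plates. The median timing of gene-free bins in KO cells was 0.731 on plate 8 and 0.788 to 0.827 on the others. The KO minus WT difference in track width differed between gene-free runs and runs with genes by -1.47 kb over all bins (exact sign-flip permutation over plates), and by 0.237 kb without the high-count bins.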

How the results depend on the processing

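Of the alternatives run, 153 values kept their direction and their side of the threshold, 32 lost their call, 14 turned in sign and 5 counts moved by more than 1.5 times, as did 10 of the counts split by direction, plates left out included. The width difference between gene-free runs and runs with genes, -1.26 kb over all bins, was 1.34 kb without high-count bins, 2.07 kb in runs of at least 3 bins, 1.32 kb in cells of at least 5000 molecules without high-count bins, and 1.90 kb without high-count bins in runs of at least 3 bins. Each of these values pools the stages of S phase. The KO minus WT width of gene-free runs less that of runs with genes was 0.237, 0.359, 0.236 and 0.683 kb in the same 4 settings, and 0.275 kb for the width at 25% of the excess. The KO minus WT width in gene-free runs lost its call in runs of at least 3 bins (2.32 kb). The timing difference in KO, gene-free less with genes, was -0.00348 in the order from bins with genes. The third decile lost its call in that order (-0.192), and the seventh in that order (-0.0280) and at 5000 molecules (-0.0244). The eighth was 0.146 at 5000 molecules, where cells were ranked anew and deciles need not hold the same stretch of S phase. Settings that join 2 choices, and all on deciles, were chosen after seeing the data. Early gene-free bins numbered 178 at 250 kb. Molecule calls numbered 83 with the plate as replicate block, 19 with at least 100 molecules per library and 1 without chromosomes 7, 10, 19 and 20. With the block 308 timing calls were made, the 296 without it and 12 more, and pairing by plate changed no call of a plate-level comparison also run unpaired or, in the measure they were named for, of the named bins. Causes were not tested.

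Leaving out each plate gave a timing difference of 0.411 to 0.423, a spread difference of -0.240 to -0.226, a log2 density of 0.30 to 0.35, a width difference of -1.39 to -1.19 kb and 38 to 39 early bins. Between genotypes it gave a log2 share of 0.09 to 0.14, a tercile average of -0.03 to -0.01, a timing difference of -0.00523 to 0.00777, a gene-free width of 0.406 to 0.610 kb and a width gap of -1.67 to -1.34 kb. Timing calls were 228 to 301 and molecule calls 29 to 76. The third, seventh, eighth and last deciles were at -0.232 to -0.205, -0.159 to -0.118, -0.144 to -0.117 and 0.167 to 0.185 (log2), with adjusted p (exact sign-flip permutation) of up to 0.0521, or 0.0781 for the seventh, since 7 plates allow no p below 0.0156. Depth limits thin bins: 60 gene-free bins had under 50 molecules in some library and were not tested.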

Other observations

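Cells of at least 5000 molecules differed widely in how much of their labelling fell in gene-free bins, with shares of 1.91% to 54.95%, a median of 19.1%, and 3.71% and 43.9% at the 10th and 90th percentile.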
